A study of Homo sapiens with 6 samples.

Results

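The genes for ribosomal proteins were read as 2 sets, those of the cytosolic ribosome (RPL and RPS) and those of the mitochondrial ribosome (MRPL and MRPS), across all arrays of a study of an epithelial-mesenchymal transition model. Members were the probe sets whose annotation gives a single protein-coding symbol that starts with RPL, RPS, MRPL or MRPS and a number. The RPS6K kinases, pseudogenes, the RPS4Y genes and RPS19BP1, which encodes a protein that binds RPS19, were left out. The rule gave 257 of 54613 probe sets. The cytosolic set had 117 probe sets for 58 genes (37 RPL and 21 RPS), and the mitochondrial set had 140 probe sets for 75 genes (48 MRPL and 27 MRPS), of 19775 genes in all. A further 25 of the 158 protein-coding RefSeq symbols that follow the rule had no probe set of their own. RPL3L, a paralogue known from striated muscle, lay at the floor, a signal taken as background, on all 6 arrays, so 57 cytosolic and 75 mitochondrial genes were measured, all of them above the floor on all 6 arrays.

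The cells were HMLE, immortalised human mammary epithelial cells, in 2 retrovirally infected lines. The Twist line carried pBabe-Twist, which encodes a transcription factor able to drive that transition, and the control line carried pBabe-shGFP, for a hairpin against a protein the cells lack. Cells were given DMSO, the solvent, or 1 of 2 levels of Cmp302, a compound named in the labels by that code alone. Their total RNA went onto 6 Affymetrix Human Genome U133 Plus 2.0 arrays, 1 for each of Twist DMSO, Twist 5 µM, Twist 10 µM, control DMSO, control 5 µM and control 10 µM. The labels conflict: 5 µM and 10 µM for 6 h stand in titles and the treatment protocol, and 2 µM, for 4 h or 8 h, in the source names. Levels carry the names of the titles here, and it is not settled if they differ in dose or in time. All cells grew in serum with insulin, hydrocortisone and EGF, and the labels state neither single clones nor pools and neither separate cultures nor shared ones. Both lines carry the immortalising genes of HMLE and a retroviral vector.

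Cytosolic ribosomes hold a small subunit, which decodes the mRNA, and a large subunit, which joins amino acids, and each subunit needs its RNA and its proteins in equal numbers. The mRNAs of the cytosolic proteins are abundant, short and stable, and most begin with a run of pyrimidines, the 5' TOP motif, through which mTOR signalling controls their translation. Mitochondrial ribosomes make the few respiratory chain proteins encoded in the mitochondrial genome, and all their proteins come from nuclear genes, many of them with ETS and YY1 sites at the promoter.

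Starts of 6 members described below are shown, with and without some of the sequence features that were counted in each set. Each is the RefSeq sequence in GRCh38.p14, read 5' to 3' on the gene's strand, with 30 bases before and 30 bases from the annotated start. Capitals mark a pyrimidine run of 8 or more that begins near the start, an ETS motif (CCGGAAG or CTTCCGG) or a YY1 motif (AAGATGG or CCATCTT). The other motifs counted below are not marked, among them TATAAA, which the RPS28 sequence holds. RPL24 and RPS28 have the run, at chr3:101686689-101686748 (minus strand) and chr19:8321466-8321525 (plus strand), and RPL24 also has a YY1 motif. RPS27L lies at chr15:63157448-63157507 (minus strand), MRPL16 at chr11:59810749-59810808 (minus strand), MRPS7 at chr17:75261849-75261908 (plus strand) and MRPL24 at chr1:156741059-156741118 (minus strand). RPL24 was added after its values were seen.
RPS28: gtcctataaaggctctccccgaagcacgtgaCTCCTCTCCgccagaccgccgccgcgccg
RPL24: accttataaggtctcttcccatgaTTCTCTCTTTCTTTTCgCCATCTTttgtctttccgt
RPS27L: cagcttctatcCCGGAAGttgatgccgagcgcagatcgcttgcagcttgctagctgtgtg
MRPL16: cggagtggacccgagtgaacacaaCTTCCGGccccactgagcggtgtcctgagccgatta
MRPS7: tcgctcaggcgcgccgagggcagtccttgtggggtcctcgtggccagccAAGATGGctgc
MRPL24: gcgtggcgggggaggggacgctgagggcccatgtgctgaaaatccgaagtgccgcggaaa

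Over all promoters with a RefSeq sequence, from 250 bases before to 50 after the start, the pyrimidine run within 10 bases of the start was present in 35 of 50 cytosolic members (70.0%), in 4 of 67 mitochondrial members (5.97%) and in 9.55% of 27305 promoters. The ETS motif, searched on both strands, was in 18 of 50 cytosolic and 28 of 67 mitochondrial promoters, against 10.7% of all. The YY1 motif was in 6 of 50 cytosolic and 22 of 67 mitochondrial promoters, against 6.06% of all. SP1 motifs (GGGCGG or CCGCCC) were in 27 and 40 promoters, and 44.6% of all promoters hold one. NRF1 motifs (GCGCATG or CATGCGC) were in 6 and 7, against 4.67% of all, and TATAAA was in 5 and 2, against 12.0% of all. A match is a description of the letters and not of a bound site.

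Values are the deposited log2 signals after a small shift of each array, and a gene was read by its brightest probe set. The floor was the median of all values, 3.71 log2 units, and 11645 to 11841 genes lay above it on an array. TWIST1, measured by 1 probe set, had signals of 11.57, 11.96 and 11.35 on the Twist arrays in the order DMSO, 5 µM and 10 µM, and of 10.70, 10.51 and 10.48 on the control arrays. Of the epithelial markers CDH1, EPCAM, KRT5 and ESRP1 lay at the floor on all Twist arrays and between 11.96 and 13.38 on the control arrays, and PRRX1, a mesenchymal marker, was at 12.67, 12.94 and 12.62 in the Twist line and at the floor in the control line. Of the marker lists all 6 epithelial genes were called lower in the Twist line and 5 of 6 mesenchymal genes higher. The defining blood and endothelial markers PTPRC, CD3E and CDH5 and the fat marker ADIPOQ were at the floor on all 6 arrays, while PECAM1 and FABP4 of that list were called higher in the Twist line and CD14 lower. The RNA quality contrast was read from the array's own control probe sets for GAPDH and ACTB. It is the mean log2 difference between their 3' and middle probe sets, which can grow when transcripts are short of their upstream part. That contrast was 0.955 on the Twist DMSO array, 0.355 on Twist 5 µM, 0.445 on Twist 10 µM, 0.28 on control DMSO, 0.45 on control 5 µM and 0.835 on control 10 µM. The Twist DMSO and control 10 µM arrays thus stand apart from the other 4 by this contrast. They do not by the mean 3' minus 5' difference of the same controls. That difference was 1.075, 0.93 and 1.065 on the Twist arrays and 0.735, 0.685 and 1.02 on the control arrays, in the same order. For GAPDH alone it was between 0.26 and 0.47 on every array. The GAPDH middle probe set lay below the 5' one on Twist DMSO (12.46 against 12.91) and control 10 µM (13.03 against 13.36). It also did on control 5 µM (13.31 against 13.46). What the 3' minus middle contrast measures on these arrays was not tested. Its part in the results below that use either array was not tested, except where a fit includes it or leaves an array out.

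Both sets were lowest on the 2 arrays with the highest contrast. The median cytosolic gene deviated from its own 6-array mean by -0.47 on Twist DMSO, 0.22 on Twist 5 µM and 0.23 on Twist 10 µM, and by 0.19, 0.02 and -0.18 on control DMSO, 5 µM and 10 µM. The median mitochondrial gene deviated by -0.21, 0.10 and 0.09 on the Twist arrays and by 0.13, 0.02 and -0.12 on the control arrays. The steps were wider for the cytosolic set. The median over all 10782 genes above the floor on 6 arrays was 0.00 on each array, which the alignment of the arrays largely sets. The Twist DMSO array was the lowest of the 6 for 51 of 57 cytosolic genes and 44 of 75 mitochondrial genes, against 25.1% of all genes. Twist DMSO and control 10 µM were the lowest 2 arrays for 44 of 57 cytosolic and 32 of 75 mitochondrial genes, against 12.1% of all. By subunit Twist DMSO was lowest for 31 of 36 RPL and 20 of 21 RPS genes (86.1% and 95.2%). The shares were smaller in the mitochondrial groups, with 26 of 48 MRPL and 18 of 27 MRPS genes (54.2% and 66.7%). In RNA from whole cultures, fewer cells with a transcript and less transcript per cell cannot be told apart.

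**Figure D1:**
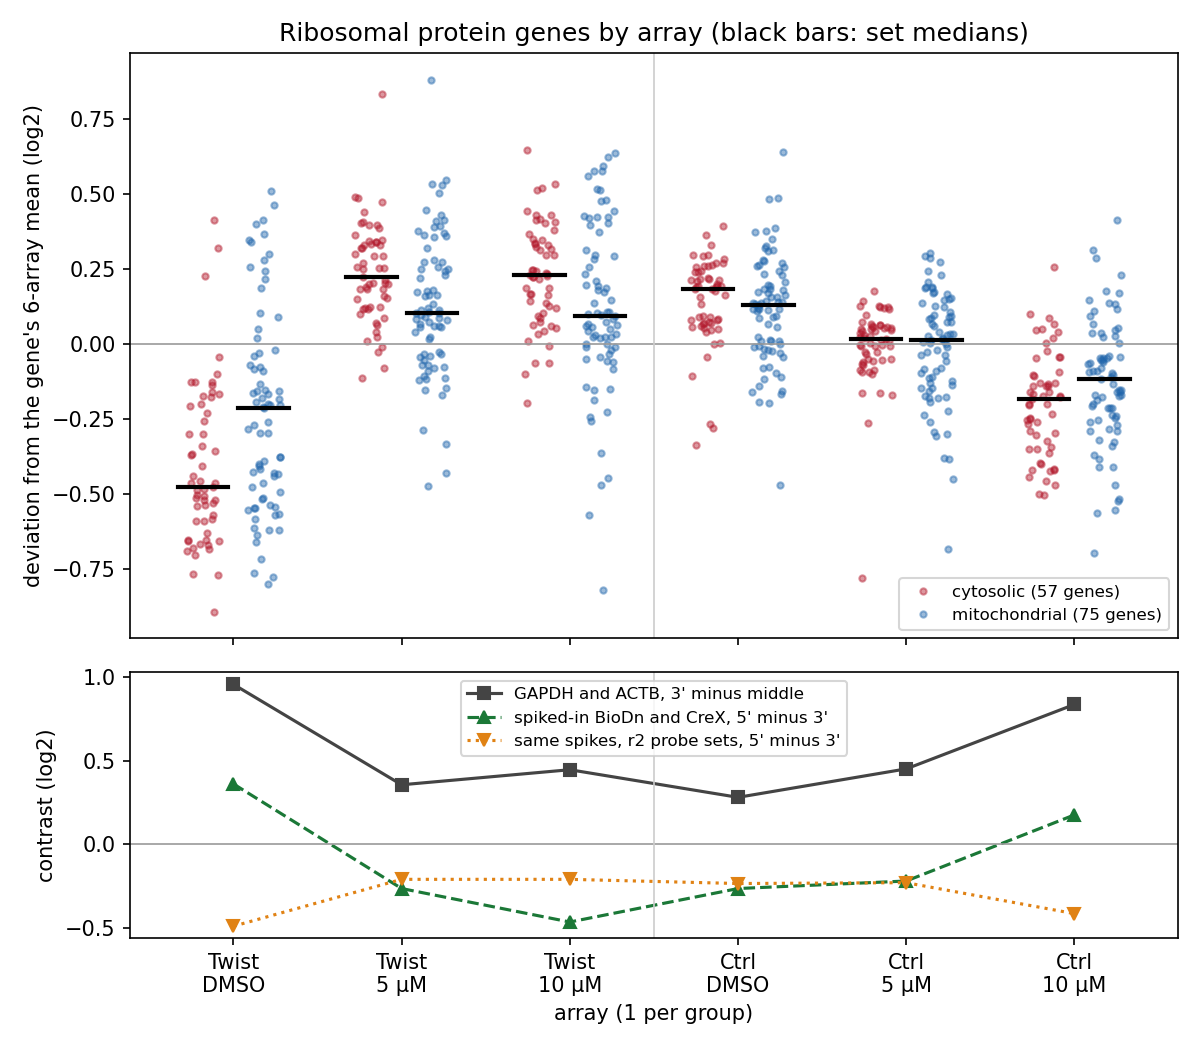
Upper panel: deviation of each gene from its 6-array mean (log2) on the 3 Twist and 3 control arrays, with cytosolic genes in red, mitochondrial genes in blue and black bars at the set medians. Lower panel: the 3' minus middle contrast of GAPDH and ACTB and the 5' minus 3' contrast of the spiked-in controls (log2) on the same arrays. The set medians are lowest on Twist DMSO (-0.47 and -0.21) and control 10 µM (-0.18 and -0.12), where the GAPDH and ACTB contrast is highest. The orange line is the 5' minus 3' contrast of the r2 probe sets of the same spiked-in transcripts, which is lowest on those 2 arrays (-0.49 and -0.415), where the BioDn and CreX contrast is highest (0.36 and 0.175).

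The first question is how the lines differ. Under DMSO the ribosomal proteins had lower signals on the Twist array than on the control array. The median difference was -0.66 log2 units in the cytosolic set, -0.36 in the mitochondrial set and -0.01 over 12516 measured genes. Lower in the Twist line were 53 of 57 cytosolic genes and 57 of 75 mitochondrial genes, against 50.0% of all genes. Past 2-fold, a difference of over 1 log2 unit, 5 cytosolic genes and 5 mitochondrial genes were lower, against 13.5% of all genes, so few of these differences were past 2-fold. The Twist array's contrast was higher by 0.675, and its part in the difference was not tested. Each such difference compares 2 arrays and carries no replicate check.

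RPL19, a large subunit protein, had the widest cytosolic difference. Its signal was 12.84, 14.12 and 14.25 in the Twist line at DMSO, 5 µM and 10 µM, and 14.03, 13.68 and 13.46 in the control line. The Twist DMSO value is the lowest of the 6 and the other Twist values are the highest, so the lines overlap. RPL32, also of the large subunit, was at 13.05, 14.31 and 14.35 in the Twist line and at 14.15, 13.72 and 13.31 in the control line. RPS28, a small protein near the mRNA exit of the small subunit, was at 12.07, 13.16 and 13.17 in the Twist line and at 13.15, 12.68 and 12.28 in the control line. RPL12, which anchors the stalk that recruits elongation factors, was at 12.73, 13.94 and 14.01 in the Twist line and at 13.76, 13.47 and 13.07 in the control line. All 4 have the same shape, low on Twist DMSO and stepping down across the control arrays. RPL24, whose start is shown above, was at 14.27, 14.44 and 14.43 in the Twist line and at 14.44, 14.44 and 14.35 in the control line, near the top of the array's range on every array.

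Among mitochondrial members the widest DMSO differences were those of MRPL16, MRPS7 and MRPS15, which share their names with bacterial ribosomal proteins. MRPL16 was at 10.51, 11.45 and 11.36 in the Twist line and at 11.93, 11.39 and 11.07 in the control line, a DMSO difference of -1.42. MRPS7 was at 10.41, 11.35 and 11.27 in the Twist line and at 11.66, 11.34 and 10.99 in the control line, a DMSO difference of -1.25. Its start holds a YY1 motif, while that of MRPL16 holds an ETS motif, and the values of both have one shape. Other members went the opposite way. MRPS25, of the small subunit, was at 11.91, 11.36 and 11.42 in the Twist line and at 10.93, 11.25 and 11.51 in the control line, a DMSO difference of 0.98. This rests on its brightest probe set, as its other probe sets were at 11.08 and 7.51 on Twist DMSO and at 11.14 and 7.64 on control DMSO.

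On the Cmp302 arrays the sign of the line difference turned. At 5 µM the median was 0.195 for cytosolic and 0.085 for mitochondrial genes. Higher in the Twist line were 51 of 57 and 45 of 75, against 49.1% of all genes, and the contrast differed by -0.095, neither array being one of the 2 that stand apart. At 10 µM the medians were 0.45 and 0.23, higher in the Twist line were 50 of 57 and 54 of 75, against 49.1% of all genes, and the contrast differed by -0.39. The order of the 3 medians, lowest at DMSO and highest at 10 µM, is the reverse of the order of the contrast differences in both sets.

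**Figure D2:**
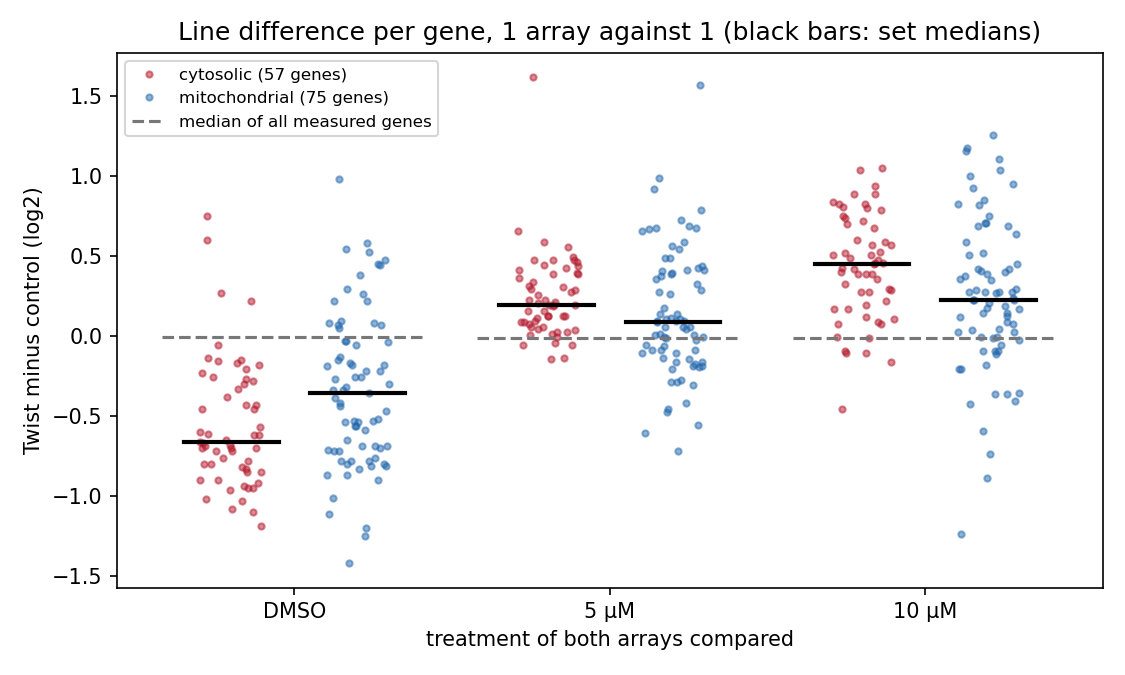
Twist minus control difference of log2 signals per gene (points) under DMSO, 5 µM and 10 µM, for 57 cytosolic genes in red and 75 mitochondrial genes in blue, with black bars at the set medians and a dashed line at the median of all measured genes. The cytosolic median is -0.66 under DMSO, 0.195 at 5 µM and 0.45 at 10 µM, and the mitochondrial median has the same order over a narrower range.

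Over the 3 treatments the line differences cancelled in the median. A limma fit with treatment as a factor, over 12482 genes, gave a median line difference of 0.02 for cytosolic and -0.04 for mitochondrial genes. No cytosolic and no mitochondrial member passed Benjamini-Hochberg adjustment at 0.05, whereas 13.7% of all genes were called higher and 14.9% lower. At an unadjusted p under 0.05 there were 2 cytosolic and 3 mitochondrial members, and 4878 of all 12482 genes. Without either DMSO array, which leaves the 4 Cmp302 arrays in the test, 29 cytosolic members were called higher and 0 lower. Of the mitochondrial members 23 were called higher and 5 lower. Among all genes 28.6% were higher and 29.6% lower without Twist DMSO, and 28.7% and 29.7% without control DMSO.

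The second question is what Cmp302 did in each line. In the Twist line both sets lay above the DMSO array at both levels. At 5 µM the median difference was 0.74 for cytosolic and 0.40 for mitochondrial genes, and 54 of 57 and 58 of 75 were higher, against 49.8% of all genes. Lower were 3 and 17, against 50.2% of all. Past 2-fold, 9 cytosolic and 5 mitochondrial genes were higher, against 4.27% of all, and none was lower, against 5.03%. At 10 µM the medians were 0.69 and 0.32, and 54 of 57 and 58 of 75 were again higher, against 49.6% of all, and 3 and 17 lower, against 50.4%. Past 2-fold, 12 cytosolic and 9 mitochondrial genes were higher, against 8.04% of all, and MRPL44 alone was lower past 2-fold, against 8.48% of all. Both levels share the DMSO array, whose contrast exceeds theirs by 0.6 and 0.51. Between 10 µM and 5 µM, arrays whose contrasts differ by 0.09, the medians were -0.01 and 0.00, with 28 of 57 and 40 of 75 higher, against 49.4% of all, and no member differed past 2-fold, against 0.592% of all genes higher and 0.508% lower.

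The limma trend over the 3 Twist arrays, with levels coded 0, 1 and 2, called 12 of 57 cytosolic members higher and none lower, against 10.7% of all genes higher and 11.3% lower. Of the mitochondrial members 13 of 75 rose and 2 fell. RPL19 rose by 0.71 ± 0.15 log2 units per level (SE, adjusted p = 0.0332), and RPL32 by 0.65 ± 0.16 (adjusted p = 0.0408). RPS18, which sits at the head of the small subunit, rose by 0.51 ± 0.12 (adjusted p = 0.0368). Among mitochondrial members MRPL2 rose by 0.52 ± 0.12 (adjusted p = 0.0342), MRPL10 by 0.58 ± 0.14 (adjusted p = 0.0378) and MRPS9 by 0.43 ± 0.10 (adjusted p = 0.0376). With any 1 array other than Twist 5 µM left out, none of the 12482 genes was called, and without Twist 5 µM 23 cytosolic and 17 mitochondrial members were called higher, against 11.8% of all genes. With the levels coded 0, 1 and 1, 39 cytosolic and 31 mitochondrial members were called higher, against 15.7% of all, with the median over a gene's probe sets 2 and 8, against 10.2%, and with no filter on low signals none, against 0.0405%.

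MRPL44 and MRPL19 were the members that fell. MRPL44, a large subunit protein with an RNase III fold, had signals of 11.79, 11.12 and 10.63 in the Twist line at DMSO, 5 µM and 10 µM, and of 11.57, 11.72 and 11.86 in the control line. It stepped down in the Twist line and up in the control line, and its Twist trend was -0.58 ± 0.09 per level (limma adjusted p = 0.0178). MRPL19, of the large subunit, was at 11.81, 11.06 and 10.96 in the Twist line and at 11.73, 11.77 and 11.84 in the control line, with a Twist trend of -0.42 ± 0.11 (adjusted p = 0.0482). MRPL50 was at 13.22, 12.33 and 12.31 in the Twist line and at 12.75, 12.88 and 13.04 in the control line, and its trend of -0.45 did not pass (adjusted p = 0.0542). These 3 had the opposite sign to the median of their set in the line difference at each treatment and in both lines' changes against DMSO, and their slopes on the quality contrast were positive, at 1.07, 0.88 and 1.12, with adjusted p of 0.117, 0.106 and 0.0551. A second MRPL44 probe set gave 9.34, 9.29 and 8.84 in the Twist line and 10.06, 10.00 and 9.79 in the control line, so its 2 probe sets went different ways in the control line.

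In the control line both sets lay below the DMSO array. At 5 µM the medians were -0.145 for cytosolic and -0.135 for mitochondrial genes, with 47 of 57 and 51 of 75 lower, against 51.8% of all genes, and the contrast was higher than on DMSO by 0.17. At 10 µM the medians were -0.37 and -0.27, with 51 of 57 and 59 of 75 lower, against 54.0% of all genes, and the contrast was higher by 0.555. No member differed past 2-fold at either level, and among all genes 0.0585% did in each direction at 5 µM, with 0.209% higher and 0.242% lower at 10 µM. Between 10 µM and 5 µM the medians were -0.21 and -0.10, with 47 of 57 and 53 of 75 lower, against 50.2% of all, and none differed past 2-fold, against 0.0418% of all higher and 0.1% lower. With suffixed probe sets (described below) left out, the cytosolic median was -0.068 for 10 µM against DMSO, with 18 of 30 genes lower, and 0.0017 for 10 µM against 5 µM, with 15 of 30 lower. The trend across the control arrays called no member, and none of the 12482 genes. At an unadjusted p under 0.05 it had 9 cytosolic and 9 mitochondrial members, and 937 of all genes.

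Whether the lines differ in their trend was tested by the interaction of line and level. It called no cytosolic and no mitochondrial member, against 0.737% of all genes higher and 0.809% lower. The nearest adjusted p values were 0.051 for MRPL44 and 0.0548 for RPS28, RPS15A, RPL32 and others. At an unadjusted p under 0.05 there were 38 cytosolic and 40 mitochondrial members, and 4927 of all 12482 genes. Without the Twist 5 µM array 21 cytosolic members were called higher and 1 lower, and 15 mitochondrial members higher and 5 lower. Among all genes 8.26% were higher and 9.55% lower. With the levels coded 0, 1 and 1, 37 cytosolic members were called higher and 0 lower. Of the mitochondrial members 31 were then higher and 7 lower, against 12.6% of all genes higher and 14.2% lower.

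A fit of line and the 3' minus middle contrast over all 6 arrays measured how far each gene followed the contrast within lines. Its slope is in log2 signal per log2 unit of contrast, and the median was -0.97 for cytosolic genes, -0.59 for mitochondrial genes and -0.04 over all genes. Of 57 cytosolic members 25 had a lower signal at higher contrast and none a higher one, against 2.01% of all genes lower and 0.809% higher. Of 75 mitochondrial members 7 were lower and none higher. By subunit 13 of 36 RPL, 12 of 21 RPS, 4 of 48 MRPL and 3 of 27 MRPS genes were called. The called cytosolic genes included RPL30 (-1.36 ± 0.13), RPL10A (-1.31 ± 0.13), RPS15A (-1.61 ± 0.20) and RPL32 (-1.89 ± 0.24), each with a limma adjusted p of 0.0364. The mitochondrial calls included MRPL47 (-1.55 ± 0.20) and MRPL40 (-1.42 ± 0.17), also with an adjusted p of 0.0364, and MRPL16 (-1.52 ± 0.23, adjusted p = 0.0444). No member was called without any 1 of 5 arrays, with the contrast of ACTB alone or of 3' minus 5', with suffixed probe sets left out, or with the median over probe sets, and no gene of the whole table was called in these fits. Without control 10 µM 44 cytosolic and 30 mitochondrial members were called lower, against 12.4% of all genes, and with GAPDH alone 46 and 37, against 16.4%. Treatment and contrast cannot be fully told apart in 6 arrays, since Twist DMSO and control 10 µM are each a treatment of their own.

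**Figure D3:**
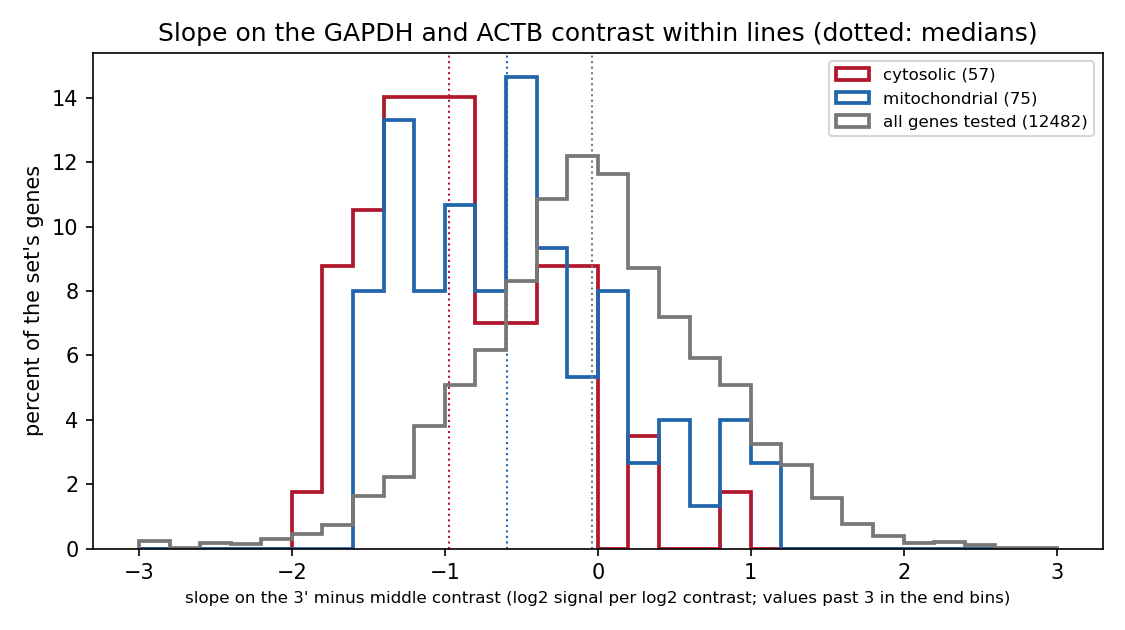
Slope of each gene on the 3' minus middle contrast of GAPDH and ACTB within lines, as the percent of each set's genes per bin, for 57 cytosolic, 75 mitochondrial and 12482 tested genes, with dotted lines at the medians. Cytosolic genes centre at -0.97, mitochondrial genes at -0.59 and all genes at -0.04.

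Control transcripts that do not come from the cells also differed between the arrays. The bacterial bioB, bioC and bioD and the phage cre transcripts are labelled beforehand and spiked into the hybridisation mix. Of their 18 probe sets 13 were lowest on Twist DMSO, whereas control 10 µM was the lowest array for none and the highest for 5. The CreX 3' probe set was at 13.83, 14.34 and 14.28 on the Twist arrays and at 14.39, 14.36 and 14.06 on the control arrays, and the BioDn 3' probe set at 12.55, 13.18 and 13.21 on the Twist arrays and at 13.23, 13.17 and 12.91 on the control arrays. These 2, chosen after their values were seen, were lowest on Twist DMSO and next lowest on control 10 µM, as the cytosolic set was, and most of the 18 did not share that order. The mean 5' minus 3' difference of BioDn and CreX was 0.36, -0.265 and -0.465 on the Twist arrays and -0.265, -0.22 and 0.175 on the control arrays. The r2 probe sets of the same transcripts ran the other way, with mean differences of -0.49, -0.21 and -0.21 on the Twist arrays and -0.235, -0.23 and -0.415 on the control arrays. The part of these differences in the members' values was not tested. Among genes of similar signal, the 50 cytosolic members with a mean of 13 or more had a median DMSO line difference of -0.66, and the 400 genes outside the sets had one of -0.01, with quartiles of -0.38 and 0.27.

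With the contrast as a covariate in place of treatment, the fit across all genes called line differences of single members. Of 57 cytosolic members 4 were called higher in the Twist line and none lower, and of 75 mitochondrial members 12 were higher and 7 lower, against 23.9% of all genes higher and 24.6% lower. RPS27L, a paralogue of RPS27 and a target of p53, had signals of 13.65, 13.44 and 13.37 in the Twist line and of 12.90, 13.07 and 12.97 in the control line. Every Twist array lay above every control array. The line difference was 0.49 ± 0.08 with the covariate (limma adjusted p = 0.0034) and 0.50 ± 0.17 with treatment as a factor (adjusted p = 0.0894). MRPL24, a large subunit protein whose start is shown above with nothing marked, was at 11.29, 11.20 and 11.22 in the Twist line and at 10.77, 10.54 and 10.51 in the control line, again without overlap. Its difference was 0.63 ± 0.11 with the covariate (adjusted p = 0.0042) and 0.63 ± 0.18 with treatment (adjusted p = 0.0547). MRPL32, which is cleaved on import before the large subunit is built, was lower on every Twist array, at 11.88, 12.20 and 12.13, against 12.59, 12.61 and 12.49 on the control arrays. Its difference was -0.47 ± 0.08 with the covariate (adjusted p = 0.0032) and -0.50 with treatment (adjusted p = 0.0976).

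MRPL23 and MRPL40 were higher in the Twist line by 0.97 ± 0.19 (limma adjusted p = 0.0064) and 0.65 ± 0.09 (adjusted p = 0.0011) with the covariate. MRPL23, at the exit of the peptide tunnel, was at 9.94, 10.99 and 10.73 in the Twist line and at 10.00, 9.42 and 9.55 in the control line, with a DMSO difference of -0.06. MRPL40 was at 11.67, 12.49 and 12.50 in the Twist line and at 12.03, 11.70 and 11.24 in the control line, with a DMSO difference of -0.36. MRPS16, mutated in a recessive respiratory chain disease, was at 11.51, 12.20 and 12.26 in the Twist line and at 11.64, 11.28 and 11.10 in the control line, with a difference of 0.72 ± 0.11 (adjusted p = 0.0021). For MRPL23, MRPL40 and MRPS16, by their brightest probe sets, the lines overlap through the Twist DMSO array. A second MRPS16 probe set was at 9.80, 9.20 and 9.29 in the Twist line and at 8.73, 9.05 and 9.20 in the control line. Its DMSO difference was 1.07. MRPS17, of the small subunit, was at 11.25, 11.65 and 11.53 in the Twist line and at 12.06, 11.85 and 11.73 in the control line, without overlap, with a difference of -0.37 ± 0.09 (adjusted p = 0.0125).

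**Figure D4:**
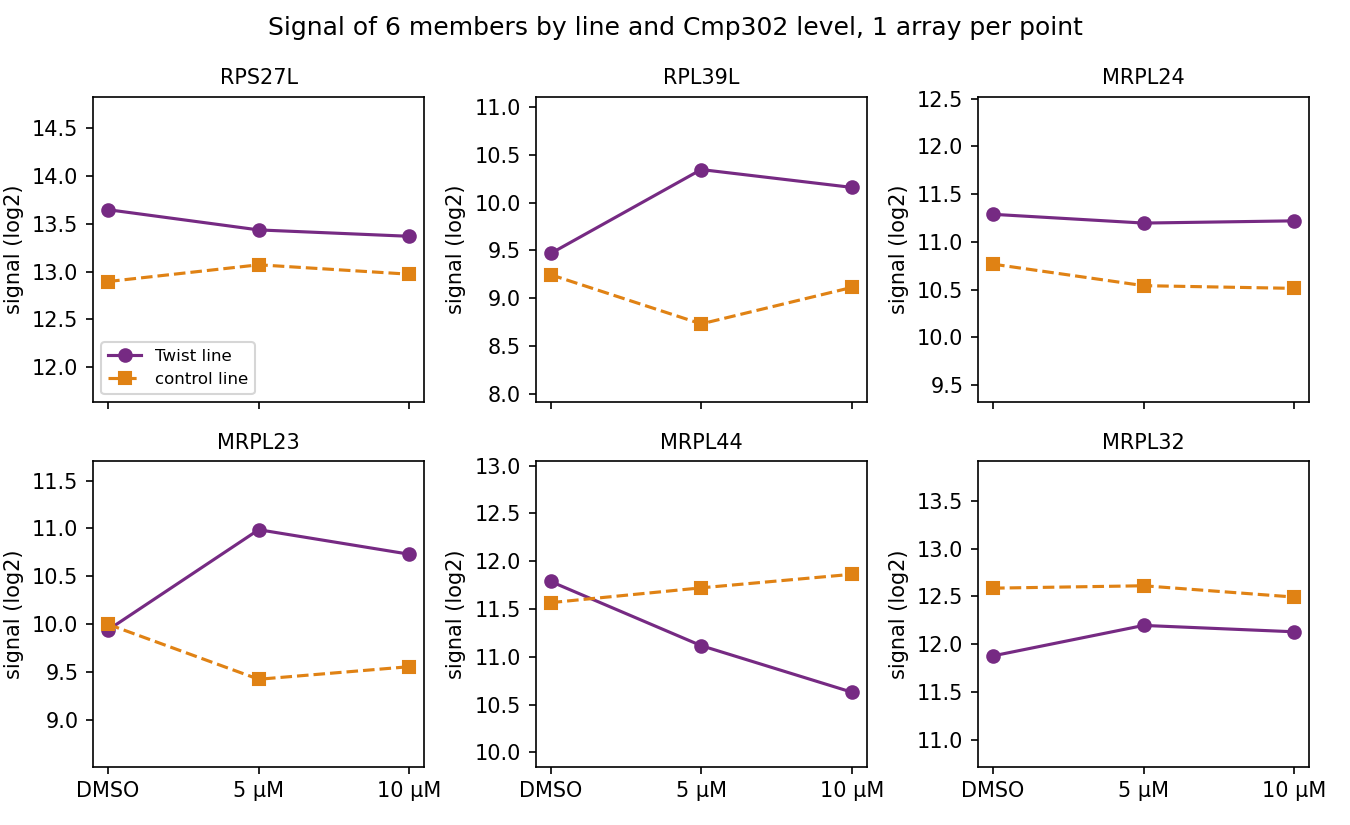
Log2 signal of RPS27L, RPL39L, MRPL24, MRPL23, MRPL44 and MRPL32 at DMSO, 5 µM and 10 µM in the Twist line (circles) and the control line (squares), 1 array per point, each panel spanning the same number of log2 units. RPS27L and MRPL24 are higher on all Twist arrays, MRPL32 is lower on all of them, and MRPL44 steps down in the Twist line to 10.63 while the control line reaches 11.86.

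The paralogues of cytosolic ribosomal proteins did not move as one. RPL39L, known from testis and some tumours, was at 9.47, 10.35 and 10.16 in the Twist line and at 9.25, 8.73 and 9.11 in the control line, with every Twist array above every control array. Its line difference was 0.96 ± 0.31 with treatment (limma adjusted p = 0.0787) and 1.01 ± 0.22 with the covariate (adjusted p = 0.0096). RPL26L1 (12.27, 13.25 and 13.11 in the Twist line, 12.97, 12.77 and 12.27 in the control line) and RPL36AL (12.61, 13.49 and 13.50 in the Twist line, 13.63, 13.44 and 12.91 in the control line) had the shape of the whole set. RPL22L1, the paralogue of RPL22, was at 11.83, 12.70 and 12.60 in the Twist line and at 12.43, 12.31 and 12.32 in the control line. RPL7L1, which acts in ribosome assembly, stayed between 13.20 and 13.31 in the Twist line and between 13.34 and 13.45 in the control line. RPL10L, known from testis, ran opposite to the set at 6.29, 5.89 and 5.77 in the Twist line and 5.69, 5.94 and 6.22 in the control line, though at a low signal. None of the 7 measured paralogues was called in the line difference or in the Twist trend, against 28.6% and 22.1% of all genes.

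The shift depended on which probe set read the gene. Of the brightest probe sets 53 of 57 cytosolic ones were lower on Twist DMSO than on control DMSO, with a median of -0.66. Of the 50 other cytosolic probe sets above the floor on all arrays 25 were lower and 25 higher, and their median was -0.07. This split went with signal. Those with a mean of 13 or more were all lower except an RPL22 probe set, at 13.34 against 13.33. The dimmer ones were all higher except an RPL22 and an RPS29 probe set. In the mitochondrial set 57 of 75 brightest and 34 of 59 other probe sets were lower, with medians of -0.36 and -0.18. Of 29 cytosolic genes with several such probe sets 17 had some lower and some higher, as had 16 of 34 mitochondrial genes. RPS24, a small subunit protein mutated in Diamond-Blackfan anaemia, is an example. Its brightest probe set was at 13.24, 14.17 and 14.24 in the Twist line and at 14.04, 13.77 and 13.50 in the control line, and its other probe set at 12.02, 10.94 and 10.59 in the Twist line and at 10.67, 11.17 and 11.25 in the control line. The 2 probe sets lie on opposite sides of their own means on every array.

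RPL37A was the reverse. Its brightest probe set was highest on Twist DMSO, at 14.27, with 13.93 and 13.94 on the other Twist arrays and 14.00, 14.06 and 14.04 on the control arrays, while the next was at 12.57, 14.14 and 14.24 in the Twist line and at 13.97, 13.65 and 13.30 in the control line. For MRPS23 the brightest probe set had a DMSO line difference of -1.01 and the other one of 1.23. Many of the brightest probe sets carry a suffix of the array maker for probes that can match more than 1 transcript, of the same gene or of others. By such a probe set 43 of 58 cytosolic and 44 of 75 mitochondrial genes were read. The x suffix, for possible cross-hybridisation, was on 36 of 73 suffixed cytosolic and 14 of 85 suffixed mitochondrial probe sets. RPL36A was read by an unsuffixed probe set with a mean of only 4.33. With all suffixed probe sets left out, 30 cytosolic genes had a median DMSO line difference of -0.12, with 16 lower and 14 higher. The 42 mitochondrial genes had one of -0.48, with 27 lower. Some of these cytosolic genes were then read by a much dimmer probe set, such as RPS15 with a mean of 4.59 in place of 12.92. Where a gene was read by an unsuffixed probe set from the start, the cytosolic median was -0.44 over 14 genes, with 12 lower. Reads from expressed pseudogenes and near-identical copies cannot be told apart from those of the gene in suffixed probe sets.

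**Figure D5:**
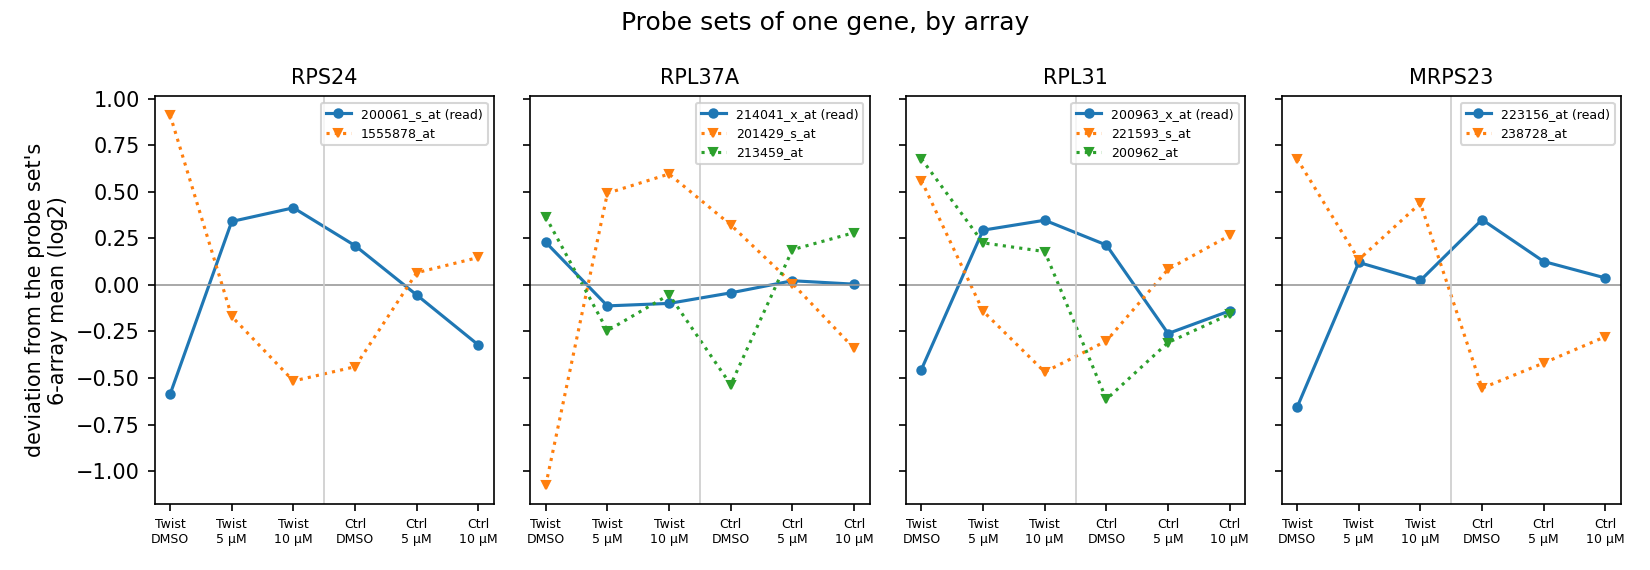
Deviation of each probe set from its own 6-array mean (log2) on the Twist arrays (left of the line in each panel) and the control arrays, for RPS24, RPL37A, RPL31 and MRPS23, with the probe set read for the gene as a solid line. In RPS24 and MRPS23 the solid line is lowest on Twist DMSO, where the other probe set is highest.

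Cytosolic members with and without the pyrimidine run had medians of the same sign. The median DMSO line difference was -0.66 for the 35 members with the run and -0.57 for the 15 without, and the medians at 10 µM against DMSO were 0.73 and 0.65 in the Twist line and -0.37 and -0.25 in the control line. RPL24, with a run of 16 pyrimidines, differed by -0.17 under DMSO in its brightest probe set, while its unsuffixed probe set read 13.07 on Twist DMSO and 13.89 on control DMSO. RPS28, with a run of 9, differed by -1.08, and RPL12, which has no run at its annotated start, by -1.03. The 63 mitochondrial members without the run had a median of -0.39.

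Ribosomal and mitochondrial proteins outside the symbol rule were read from lists. Their DMSO counts stand against 50.0% of all genes lower, and their Twist trend counts against 10.7% of all genes higher and 11.3% lower. RPLP1 and FAU, which encode a stalk protein and a small subunit protein, had DMSO line differences of -1.10 and -1.03, and RPLP2, of the stalk, had one of -0.11. The list for the mitochondrial ribosome had 5 measured genes with a median of -0.04, 3 lower and 2 higher. Their differences were -1.35 for DAP3, -0.89 for PTCD3, -0.04 for GADD45GIP1, 0.16 for CHCHD1 and 0.21 for NGRN. NGRN is counted there though it acts in assembly and is not a ribosomal protein. Of the 5 genes DAP3 alone was called in the Twist trend. DAP3, a small subunit protein, was at 11.72, 12.79 and 12.85 in the Twist line and at 13.07, 12.73 and 12.71 in the control line, and it rose by 0.57 ± 0.15 (limma adjusted p = 0.0452). Translation factors and other TOP genes, 16 measured of 18, had a median of -0.53, with 15 lower. In the Twist trend 2 of them rose and none fell, among them EIF3H, an initiation factor subunit, by 0.77 ± 0.18 (limma adjusted p = 0.0365). Of these 16 genes 5 were called with a lower signal at higher contrast, against 2.01% of all genes. Nuclear subunits of oxidative phosphorylation, 34 measured of 39, had a median of -0.39, with 25 lower. Of these 3 rose and 4 fell in the Twist trend, with NDUFS3 of complex I at 0.57 ± 0.14 (adjusted p = 0.0402) and SDHD of complex II at -0.57 ± 0.10 (adjusted p = 0.0239).

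Mitochondrial translation and RNA factors, 22 measured of 24, had a median DMSO line difference of -0.44, with 15 lower. In the Twist trend 5 rose and 1 fell, with NSUN4, an rRNA methyltransferase of the mitochondrial ribosome, at 0.75 ± 0.11 (limma adjusted p = 0.0171) and GFM1, an elongation factor, at -0.53 ± 0.14 (adjusted p = 0.0448). Between lines 2 of the 22 were called higher and 2 lower over the treatments, against 13.7% of all genes higher and 14.9% lower. Among them were MTERF3, known in mice as a repressor of mitochondrial transcription, at 0.86 ± 0.19 (limma adjusted p = 0.0253), and MTRF1, a release factor homologue, at -1.10 ± 0.22 (adjusted p = 0.0178). Ribosome biogenesis factors had a median of -0.12 over 30 measured of 35, with 17 lower, against -0.01 over all genes. RRP12, which acts in the export of ribosomal precursors, was at 8.23, 9.50 and 9.99 in the Twist line and at 8.18, 7.82 and 8.01 in the control line, and rose in the Twist trend by 0.88 ± 0.15 (adjusted p = 0.0231). In that list 3 members rose and 2 fell in the Twist trend.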

How the data were processed

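RNA of 6 HMLE samples was measured on 1 array each. By their range the deposited values are log2 signals. The submitters' processing notes name GCOS 1.2; background correction and summarisation are not given in the sources used here. Arrays were aligned by the median log2 ratio, among brighter probe sets, to the average array, with offsets of -0.03 to 0.01. From 54675 probe sets 62 Affymetrix controls were removed, and those with several symbols (1801) or no symbol (11721) stayed out. The other 41091 gave 19775 genes, each read by its brightest probe set, with values under 3.71 raised to that floor. limma 3.58.1 (R 4.3.3; eBayes with a signal trend) tested 12482 genes that exceeded the floor on 2 or more arrays, with Benjamini-Hochberg adjustment at 0.05 across all of them. Line was fitted with treatment, line with level and their interaction (2 residual degrees of freedom each), and line with the contrast (3). The fits were tested on simulated data. Named genes were the 4 highest and 4 lowest members per set in the mean line difference and in the Twist line change, the 2 highest and 2 lowest in the control line change, up to 6 called per fit and direction, the 3 largest slopes each way, the 4 whose probe sets differ most, all paralogues and the 2 widest members of the other lists each way; only some are printed. Members, lists and rules were chosen with earlier results of these data known. The number of arrays limits the precision, and p-values measure only the spread between these 6, which may be technical.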

Additional observations from a re-analysis of the deposited data

Results flagged for a closer look

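Median changes at 10 µM against DMSO had opposite signs in the lines: 0.69 in the Twist line and -0.37 in the control line for the cytosolic set, and 0.32 in the Twist line and -0.27 in the control line for the mitochondrial set. The difference was not tested for the sets, and gene by gene the interaction of line and level called no member. The 3' minus middle contrast moved the other way, by -0.51 in the Twist line and 0.555 in the control line, and its part in the result was not tested.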

How the results depend on the processing

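Counts are given as cytosolic and mitochondrial members. The line difference called 0 and 0, against 3 and 4 with the median over probe sets and 2 and 3 without suffixed probe sets. It called 1 mitochondrial member with no filter or without the signal trend in eBayes, and 4 and 19 with the quality covariate. Of all genes it called 28.6%, and in these alternatives 31.1%, 30.5%, 10.5%, 27.0% and 48.4%, in that order. It called 0 to 29 and 0 to 28 when 1 array was left out, against 19.7% to 58.4% of all genes. The Twist trend called 12 and 13 higher, against 7 cytosolic with quantile normalisation, 2 and 8 with the median over probe sets and 2 cytosolic without suffixes. It called 0 and 0 higher with no filter, 5 and 7 without the signal trend and 39 and 31 with levels 0, 1 and 1. Of all genes it called 10.7% higher, and in these alternatives 10.7%, 10.2%, 10.7%, 0.0405%, 10.0% and 15.7%, in that order. It called 0 to 23 and 0 to 17 higher with 1 array left out, against up to 11.8% of all genes. The control trend called 0 under each alternative run. The difference of trends called 0 and 0, against 1 mitochondrial member with the floor at the 35th percentile. With levels 0, 1 and 1 it called 37 and 38, of which 37 and 31 were higher. With 1 array left out it called 0 to 22 and 0 to 20. Of all genes 1.55%, 2.68%, 26.8% and up to 17.8% were called in these fits, in that order. The quality slope called 25 and 7 lower, against 14 and 4 with the floor at the 35th percentile. It called 38 and 21 lower with the floor at the 65th percentile and 46 and 37 with GAPDH alone. With 1 array left out it called 0 to 44 and 0 to 30 lower. It called 0 and 0 with ACTB alone, with 3' minus 5' or with the median over probe sets. The same held without suffixes, with no filter or without the signal trend. With the BioDn and CreX contrast it called 44 and 33 lower, against 15.9% of all genes. With the r2 contrast of the same spiked-in transcripts it called 0 and 6 lower, against 12.1% of all genes. That contrast runs the other way, and with it 43 and 29 members were called higher, against 1371 of all 12482 genes. Both spiked-in contrasts were chosen after seeing the data. With quantile normalisation the cytosolic medians were -0.535 for the DMSO line difference, 0.33 for the line difference at 10 µM, 0.58 and 0.59 for 5 µM and 10 µM against DMSO in the Twist line and -0.23 for 10 µM against DMSO in the control line. With the median over probe sets they were -0.49 for the DMSO line difference, 0.57 and 0.56 for the Twist changes and -0.23 for the control change, and the mitochondrial Twist change at 5 µM was 0.27. Without suffixed probe sets they were -0.12, 0.32, 0.25, 0.27 and -0.068 in the order used for quantile normalisation, and the mitochondrial DMSO line difference was -0.48. For 10 µM against 5 µM the cytosolic median of the control line was 0.0017 without suffixed probe sets, the cytosolic median of the Twist line 0.0133 with snoRNA host probe sets, and the mitochondrial median of the Twist line -0.0167 with the median over probe sets, all of the opposite sign to the values reported. No other set median changed sign. RPS24 had Twist trends of -0.11 with the median over probe sets and -0.71 without suffixes, and quality slopes of 0.13 and 1.61; RPS28 had -0.22 and 0.56 under both. With the r2 contrast, which runs opposite to the others, slopes were 3.18 for MRPL16, 2.77 for MRPL27, 3.07 for MRPL40, 3.56 for MRPL47, 2.87 for MRPS15, 3.07 for MRPS7, 2.86 for RPL10A, 3.99 for RPL12, 2.92 for RPL14, 3.25 for RPL26L1, 2.97 for RPL30, 4.21 for RPL32, 2.59 for RPL35, 3.23 for RPL36AL, 2.08 for RPL39, 3.64 for RPS15A, 3.06 for RPS24, 3.76 for RPS28 and 3.24 for RPS4X. The cause of these moves was not tested, beyond the change of probe sets. Another background correction was not run. The line difference with treatment as a factor compares the lines within each treatment. Pairing by culture was not possible, since the labels do not state it. The 6 arrays leave 2 or 3 residual degrees of freedom, so calls near the threshold depend on single arrays.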
